A study of Mus musculus with 12 samples.

Results

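Tumours called WT in the deposited hashtag sheet were compared with tumours of control line 18, both grown from SCC35 cells and profiled cell by cell in the same library, the second of 2 mixed libraries. Their members are the cell barcodes of that library with at least 300 genes, at most 15% mitochondrial UMIs (unique molecular identifiers, 1 per captured RNA molecule), a leading hashtag of at least 20 counts and a leading hashtag at least 3 times the second. By this rule 13848 of the 116375 hashtag-assigned cells of the series were members, 9029 from 3 WT tumours and 4819 from 2 line 18 tumours. Cells with 2 or more UMIs of Ptprc plus Tyrobp (the pan-leukocyte phosphatase CD45 and a signalling adaptor of myeloid and NK cells) were called immune, which gave 3566 immune cells and 10282 other cells.

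The series is on the rejection of melanoma in mice and on Mif, macrophage migration inhibitory factor, a secreted cytokine that binds the receptor complex of CD74 and CD44. WT tumours were taken on days 6, 10 and 16 and line 18 tumours of this library on days 6 and 10. The sheet gives the WT rows no line number, whereas the library's own label names control 18 and Mif knockout 24 and does not mention WT. Control line 18 is labelled as a control of the Mif knockout, and 3 tumours of Mif knockout line 24, of days 6, 10 and 16, filled the rest of the library. The strain, sex and age of the hosts, the guide used in line 18, whether that line is 1 clone and whether a hashtag pools animals are not stated in the labels or the sheet. All tumours were dissociated, hashed and sorted for live cells with a propidium dye, so that both groups share every handling step that is recorded.

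Interferons made by activated lymphocytes and by infected or damaged cells act through STAT transcription factors on many genes. Among these are the guanylate-binding and immunity-related GTPases, the chemokines CXCL9 and CXCL10 that draw T cells bearing CXCR3, and the parts of the MHC class I pathway: the immunoproteasome subunits, the TAP peptide transporter, the class I heavy chains and B2m. Class I molecules show peptides of the cell to CD8 T cells. Osteoclasts are large cells of the monocyte lineage that resorb bone with cathepsin K, tartrate-resistant acid phosphatase and Mmp9, and multinucleate cells of this kind also occur in some tumours.

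The 5 tumours compared are defined by the hashtag oligonucleotides below, whose 15 bases were read with each cell and are the only link between a cell and its tumour.
WT day 6: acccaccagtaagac
WT day 10: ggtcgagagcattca
WT day 16: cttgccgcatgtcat
Line 18 day 6: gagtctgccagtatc
Line 18 day 10: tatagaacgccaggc
They were found on 3184, 3167, 2678, 1895 and 2924 cells in that order. The median cell had 6422.5, 5981 and 4134.5 UMIs in the WT tumours and 10692 and 6091 in the line 18 tumours, and the sums per tumour ranged from 13767724 to 23470133 UMIs. Cells of the line 18 tumour of day 6 were therefore the deepest, and those of the WT tumour of day 16 the shallowest. Of the barcodes that passed the cell filters, 17.52% carried mixed hashtags and were left out. Between 889 and 1508 barcodes of the library also occurred in each of the other 5 libraries.

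Of 8 melanocytic markers, 4 that make or pack pigment or mark pigment cells, Tyrp1, Tyr, Dct and Mlana, had no UMI in the other cells of any of the 5 tumours. The other 4, Mitf, Sox10, Pmel and Ednrb, were detected and made up the list's summed level of 12.1, 13.9 and 14.9 CPM in WT and 12.9 and 21.6 CPM in line 18 tumours. Most of that was Mitf, the transcription factor of the lineage, at 11.5, 13.3 and 13.5 CPM in WT and 12.4 and 19.2 CPM in line 18 tumours. Of 14 melanocyte lineage genes only Kit, Ednrb and Mitf were abundant enough to be tested, and none passed. Most other cells fell in clusters that the marker lists left unnamed, 91.66%, 93.66% and 86.75% in the WT tumours and 91.18% and 89.06% in the line 18 tumours. They are therefore called other cells rather than tumour cells. The immune gate took 95.67% of the cells in macrophage/monocyte-like clusters but only 42.81% of those in T-cell-like clusters, so that the other cells also held T cells. These made up 1.63%, 2.68% and 10.08% of other cells in the WT tumours and 0.99% and 1.94% in the line 18 tumours.

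Mif was present in both groups. In other cells it stood at 2491, 2606 and 2120 CPM (counts scaled to an equal library total) in the WT tumours of days 6, 10 and 16, and at 1886 and 1986 CPM in the line 18 tumours of days 6 and 10. All 3 WT tumours lay above both line 18 tumours. The fitted log2 fold change, WT over line 18, was 0.41 (SE 0.11) and did not pass the test (edgeR adjusted p = 0.158); without the filter on low counts it was 0.41 with an adjusted p of 0.0262. Line 18 tumours of the other libraries (n = 7) spanned 1746 to 2200 CPM. The 3 tumours of knockout line 24 in the same library stood at 1074, 1138 and 1076 CPM, below every WT and line 18 tumour, and 5 tumours of that line in a library of its own spanned 352 to 472 CPM. The mixed library thus gave line 24 a higher Mif level than its own library did; the part of RNA or hashtags shared between tumours of 1 library in the differences below was not tested. Mif lies at chr10:75859353-75860240 on the minus strand (GRCm38, GENCODE M21), with 3 exons. Its homologue Ddt differed by 0.14 on the log2 scale (adjusted p = 0.647). In immune cells Mif was at 1566, 1565 and 1429 CPM in WT and 1623 and 1489 CPM in line 18 tumours, which overlap.

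In other cells, 9 of 22 MHC class I genes, 13 of 26 immediate early genes, 7 of 26 glycolysis and hypoxia genes and 7 of 38 chemokines and cytokines were called higher in WT than in line 18 tumours, and all measured interferon-response genes lay higher. Of 13250 genes tested, 236 (1.78%) passed an adjusted p of 0.05 in edgeR's quasi-likelihood test with day as a term. Of these, 178 (1.34%) were higher and 58 (0.438%) lower in WT tumours. The median of all genes was -0.003 on the log2 scale. Because line 18 has no tumour of day 16 here, the fit rests on 2 day pairs with 1 residual degree of freedom before the spread is shared across genes, and the WT tumour of day 16 carries no weight in it.

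Interferon-response genes formed the most uniform group. All 32 measured members were higher in WT tumours, with a median log2 fold change of 1.86, and 3 passed the test, Iigp1, Cxcl10 and Ifi27l2a. All 3 WT tumours stood above both line 18 tumours for all 32 members, against 16.6% of all genes tested. Iigp1, an immunity-related GTPase, was at 275, 118 and 143 CPM in WT and 12.9 and 30.9 CPM in line 18 tumours. The lowest WT value was thus several times the highest line 18 value (log2 fold change 3.15, SE 0.55, adjusted p = 0.0475). Cxcl10 was at 666, 389 and 677 CPM in WT and 57.0 and 97.4 CPM in line 18 tumours (2.78, SE 0.35, adjusted p = 0.0192). Ifi27l2a, a small interferon-induced membrane protein, was at 481, 322 and 389 CPM against 42.0 and 91.6 CPM (2.67, SE 0.38, adjusted p = 0.0281). In each of these genes the line 18 tumour of day 6 was the lowest of the 5. Tgtp2, another interferon-induced GTPase, which shares reads with its near copy Tgtp1 and is uncertain for that reason, had the largest fold among the genes named by size: 48.2, 22.5 and 28.1 CPM against 2.61 and 3.60 CPM (3.45, SE 0.35, adjusted p = 0.0122).

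Of 22 class I presentation genes, 9 rose in WT tumours, none fell, and 19 lay higher, with a median of 1.35. The largest of those that passed was Psmb9, an immunoproteasome subunit, at 106, 69.5 and 98.5 CPM in WT and 8.44 and 16.8 CPM in line 18 tumours (2.84, SE 0.35, adjusted p = 0.0192). Psmb8, its partner in the same particle, was at 251, 178 and 224 CPM against 28.8 and 68.0 CPM (2.25, SE 0.38, adjusted p = 0.0436). The groups did not overlap for either subunit. The non-classical class I genes H2-Q7 and H2-Q4, each with relatives in its gene family that may share reads, had log2 fold changes of 2.42 and 2.36. For 19 of the 22 genes every WT tumour stood above both line 18 tumours. With each cell thinned to 1000 UMIs, so that depth was equal, the median cell of the unnamed clusters had 9, 9 and 12 UMIs of the class I list in WT tumours and 3 and 5 in line 18 tumours; unthinned, the medians per 1000 UMIs were 8.98, 9.36 and 11.7 against 3.09 and 5.11. For the interferon list the thinned medians were 5, 2 and 3 UMIs in WT and 0 and 1 in line 18 tumours, and the means were 7.29, 3.99 and 4.50 against 1.06 and 1.97. The median cell thus differed too, with 1743 to 2319 cells per WT tumour and 1361 and 1554 per line 18 tumour deep enough to be thinned; 81, 61 and 64 WT and 24 and 50 line 18 cells were too shallow. Different clusters held these cells in the 2 groups, and their leading genes include genes named here. The cluster led by Ifit3b, Ifit3 and Ifit1, in which Iigp1, Cxcl10 and Tgtp2 also lead, held 15.14%, 6.19% and 4.89% of assigned cells in WT and 0.69% and 1.95% in line 18 tumours, and the cluster with Sox9, Ndrg1, Car9 and Areg 12.91%, 16.61% and 13.03% against 1.06% and 1.92%. Line 18 cells lay more in the cluster with Akr1c18, Dpys and Mfap3l, at 26.65% and 16.89% against 11.97%, 12.69% and 5.38%, and in that with the mitotic genes Ccnb1 and Plk1, at 25.17% and 8.11% against 3.36%, 3.09% and 1.27%. A larger cluster with the mitotic genes Aurkb and Cdc20 went the other way on days 6 and 10. It held 12.56%, 12.85% and 9.78% in WT and 10.98% and 5.47% in line 18 tumours. The clusters were built from these genes, so their sizes are a description and not a further result.

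**Figure D1:**
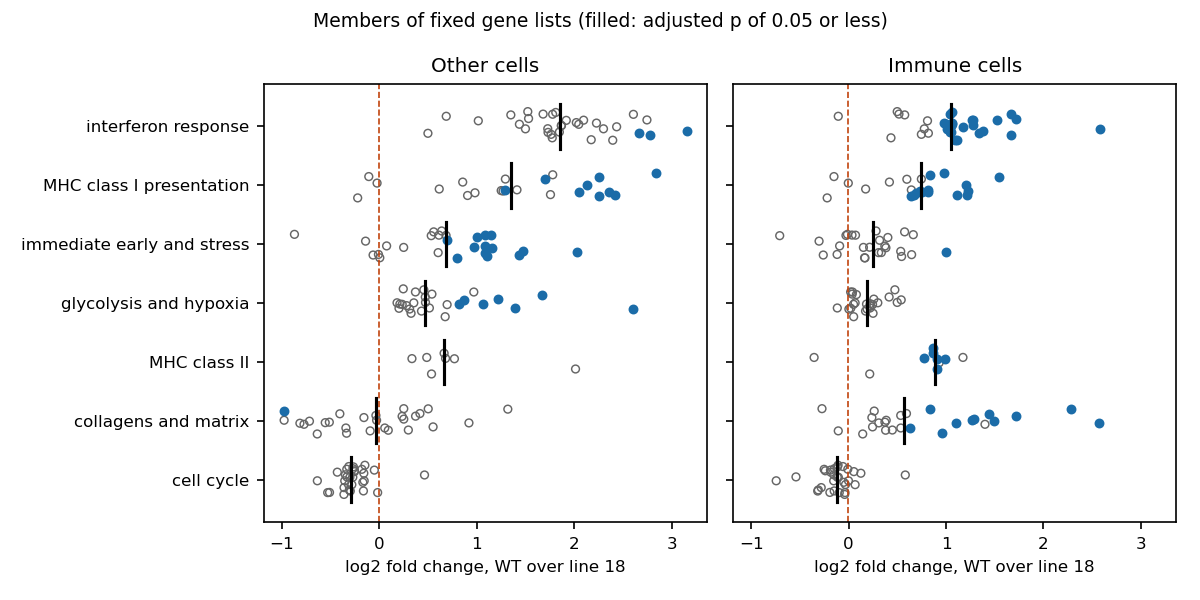
Log2 fold change, WT over line 18, of every tested member of 7 gene lists in other cells (left) and immune cells (right). Each point is 1 gene, filled points passed an adjusted p of 0.05, black bars are list medians and the dashed line is the median of all genes; the interferon and class I lists lie to the right in both panels, with medians of 1.86 and 1.35 in other cells.

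The promoters of 2 of the genes named by size carry the interferon-stimulated response element, searched on both strands as GAAA, any 2 bases and GAAA, from 250 bases before to 50 after the start. They are shown because Cxcl10 and Tgtp2 are among the largest differences. The 250 bases upstream of the start are given from RefSeq (GRCm38.p6), with the match in capitals.
Cxcl10, chr5:92348890-92349139, minus strand: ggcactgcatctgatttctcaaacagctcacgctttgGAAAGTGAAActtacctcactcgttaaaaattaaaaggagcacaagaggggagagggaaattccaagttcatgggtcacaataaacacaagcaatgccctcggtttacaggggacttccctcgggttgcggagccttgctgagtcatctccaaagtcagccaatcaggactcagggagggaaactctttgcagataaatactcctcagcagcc
Tgtp2, chr11:49064213-49064462, minus strand: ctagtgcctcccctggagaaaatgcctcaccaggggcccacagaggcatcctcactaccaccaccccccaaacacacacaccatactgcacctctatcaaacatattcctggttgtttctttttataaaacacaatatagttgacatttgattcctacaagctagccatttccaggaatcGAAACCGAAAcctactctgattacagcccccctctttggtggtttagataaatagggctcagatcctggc
The match begins 213 bases before the start in Cxcl10 and 70 bases before it in Tgtp2. Of the 178 genes higher in WT tumours, 117 were matched to a RefSeq promoter and 11.11% of these held the element, against 5.41% of 37 matched genes that were lower and 3.92% of all matched genes tested. Among all 27025 genes with a RefSeq promoter the share was 3.99%, among 26 matched interferon-list genes it was 53.85% and among 19 class I genes 26.32%. A second motif, TTCNNNGAA, the site bound by STAT dimers, was held by 12.82% of the genes higher in WT tumours, 5.41% of those lower and 8.25% of the genes tested. These shares are descriptions and a match is not a site of binding.

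Immediate early genes are transcription factors and feedback regulators switched on within minutes of growth factor signals, stress or tissue dissociation. Of 26 measured, 13 rose in WT tumours and none fell, with a median of 0.69. The largest that passed were Egr2 (26.2, 27.7 and 35.2 against 4.77 and 9.04 CPM; 2.02, adjusted p = 0.0132), Egr1 (1.47, adjusted p = 0.0167), Zfp36 (1.44, adjusted p = 0.0342) and Ier2 (1.16, adjusted p = 0.0117). In Egr1, a zinc-finger factor, the levels were 496, 616 and 848 CPM in WT and 144 and 282 CPM in line 18 tumours. Both groups had their lower value on day 6. Of 18 genes induced by MAPK signalling, 4 rose and none fell: the EGF-family ligands Hbegf (1.25) and Areg (1.14), the phosphatase Dusp5 (1.12) and Phlda1 (0.98). Hbegf was at 503, 537 and 484 CPM in WT and 219 and 222 CPM in line 18 tumours, with little spread within either group.

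All 26 measured genes of glycolysis and the hypoxia response had a fitted value above 0, 7 passed and none fell, with a median of 0.47. All 3 WT tumours stood above both line 18 tumours for 12 of the 26. Without the WT tumour of day 6, in the fit of all 8 tumours of the library, 23 of 26 lay higher, 0 passed and the median was 0.18; without the line 18 tumour of day 6, 1 passed, and without the day term 2 passed. Car9, the carbonic anhydrase that cells induce when oxygen is low, was at 193, 318 and 234 CPM in WT and 26.0 and 64.0 CPM in line 18 tumours (2.61, SE 0.17, adjusted p = 0.00549). Egln3, an oxygen-sensing prolyl hydroxylase, followed at 1.67 (adjusted p = 0.0120), Ndrg1 at 1.40 (adjusted p = 0.0110) and the glycolytic enzyme Hk2 at 1.22 (adjusted p = 0.0123). The typical cell differed less here: the thinned medians were 18, 20 and 15 UMIs of the list in WT and 15 and 17 in line 18 cells, which overlap, as did the means of 19.9, 22.2 and 16.7 against 16.3 and 18.8.

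Of 38 chemokines and cytokines, 7 rose and 1 (Cxcl5) fell, with a median of 0.81; without the WT tumour of day 6 none passed (median 0.47) and without the line 18 tumour of day 6 only 1 (median 0.28). Csf2, the granulocyte-macrophage growth factor, was at 11.1, 6.76 and 20.2 CPM in WT and 0.444 and 0.982 CPM in line 18 tumours (3.66, SE 0.40, adjusted p = 0.0132). The neutrophil-attracting chemokine Cxcl1 was at 2249, 1576 and 2875 CPM against 285 and 567 CPM (2.24, SE 0.34, adjusted p = 0.0318). The interleukin-6 family cytokine Lif had a log2 fold change of 2.38 (adjusted p = 0.0164). All 3 genes were higher in every WT tumour than in both line 18 tumours.

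Beyond the lists, the genes with the largest higher levels in WT tumours included Hopx, Prl2c3 and Ly6c1. Hopx, a homeodomain protein that does not bind DNA, was at 64.8, 82.5 and 147 CPM in WT and 6.44 and 9.96 CPM in line 18 tumours (3.20, SE 0.14, adjusted p = 0.00203), the smallest adjusted p of the genes named in other cells. Prl2c3, a prolactin-family gene with near copies, was at 104, 20.4 and 6.29 CPM against 8.55 and 3.54 CPM, and its WT tumour of day 16 lay between the line 18 tumours. Ly6c1, a surface protein with the near copy Ly6c2, had a log2 fold change of 2.67 (adjusted p = 0.0282). The transcription factor Sox9 was at 229, 215 and 180 CPM in WT and 70.1 and 65.4 CPM in line 18 tumours (1.72, adjusted p = 0.00549), 1 of 3 among 21 dedifferentiation and neural crest genes that rose, with Jun and Tfap2b. Krt18, Lcn2 and Wfdc2 rose among 5 simple-epithelial genes, H19 among 16 imprinted genes, and Btg2, Fas and Plk2 among 21 p53 targets. Of the imprinted genes 6 lay higher and 10 lower, with a median of -0.469. The p53 targets lay 12 higher and 9 lower, with a median of 0.043. For 2 of the 5 epithelial genes all WT tumours stood above both line 18 tumours. Wfdc2 ran from 0.725 to 3.899 over 16 alternatives.

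The lower genes were fewer, and the largest of their changes was smaller. Mfap3l was at 10.1, 9.78 and 7.60 CPM in WT and 50.6 and 22.8 CPM in line 18 tumours (-1.77, SE 0.26, adjusted p = 0.0282). Scube3, a secreted glycoprotein, was at 10.3, 13.8 and 13.5 CPM against 29.0 and 46.5 CPM (-1.61, SE 0.15, adjusted p = 0.0113). Uchl1, a ubiquitin hydrolase of neurons and neuroendocrine cells, was at 16.3, 16.2 and 15.8 CPM against 44.1 and 41.5 CPM (-1.38, SE 0.13, adjusted p = 0.0117). No WT tumour reached a line 18 tumour in these 3 genes; all WT tumours stood below both line 18 tumours for 18.3% of the genes tested. The tetraspanins Tspan12 (-1.55) and Tspan6 (-1.45), the steroid dehydrogenase Akr1c18 (-1.21), the sulfite oxidase Suox (-1.06) and the dihydropyrimidinase Dpys (-1.05) also fell. Fabp4 (-1.60) and Ecscr (-1.55), both expressed in endothelium, fell too, and endothelial-like clusters held 0.17%, 0.16% and 0.10% of other cells in WT and 1.51% and 1.17% in line 18 tumours. With the clusters named as a host cell type left out, Fabp4 turned to 2.06 (adjusted p = 0.0147) and Ecscr stayed at -1.91 (adjusted p = 0.0076).

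**Figure D2:**
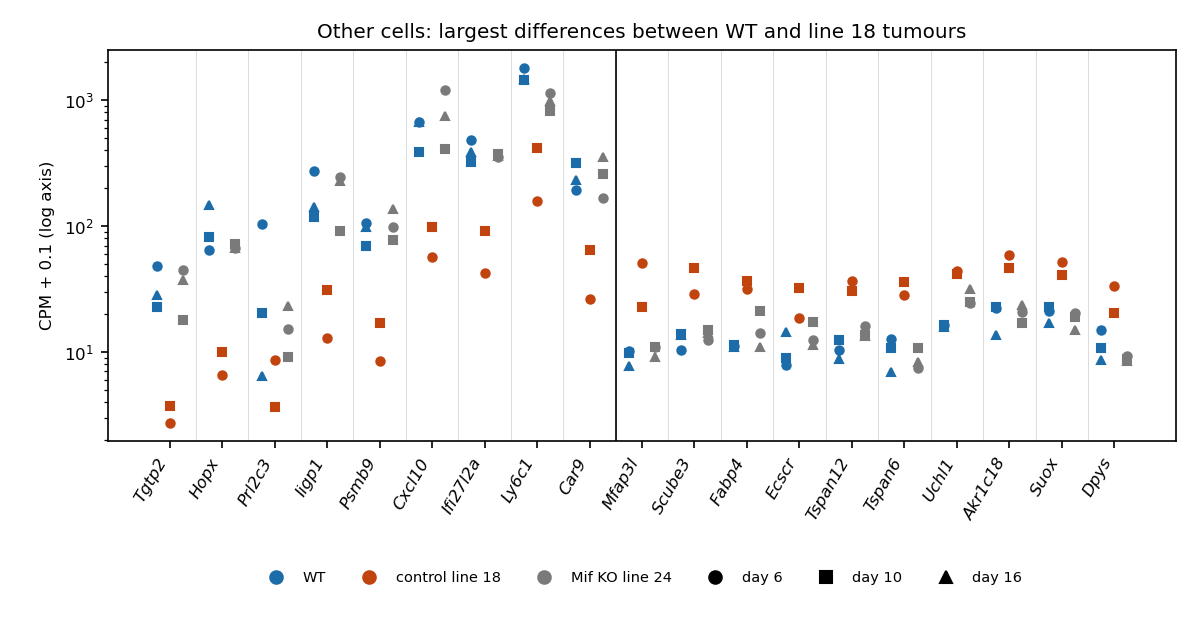
CPM per tumour in other cells (log axis, 0.1 added) for 9 of the 10 largest higher genes and the 10 largest lower genes, left and right of the vertical line. Blue points are WT, orange points line 18 and grey points knockout line 24, with shape giving the day; apart from Prl2c3, no blue point reaches an orange one, as for Hopx at 64.8 to 147 against 6.44 and 9.96 CPM.

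Cell cycle genes did not pass in either direction (0 of 30); 29 had a fitted value below 0, with a median of -0.29, but 14 lay lower on both days and 9 lay below both line 18 tumours in all 3 WT tumours. The largest were Ccne2 (-0.64, adjusted p = 0.186) and Rrm2 (-0.53, adjusted p = 0.174). Of 27 collagen and matrix genes only Thbs2, a matricellular inhibitor of vessel growth, passed (-0.98, adjusted p = 0.0480), and the median was -0.04. The ecto-5′-nucleotidase Nt5e fell among 15 checkpoint ligands (-1.30, adjusted p = 0.0431). No MHC class II gene passed (0 of 7 measured). Cd74, the invariant chain and Mif receptor, was at 87.7, 58.5 and 129 CPM in WT and 37.5 and 55.3 CPM in line 18 tumours (adjusted p = 0.299). With the clusters named as a host cell type left out, Cd74 passed (0.841, edgeR adjusted p = 0.0478). Over 20 chromosomes the median log2 fold change ran from -0.09 on chromosome 16 to 0.04 on chromosome 19.

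Tumours that carry no weight in the fit gave a second look at the same genes: the WT tumour of day 16 was set against the 7 line 18 tumours of days 6 to 16 from other libraries, so that library differs between these groups. The WT tumour lay above all 7 for 148 of the 178 higher genes (83.1%), against 23% of all genes tested, and above their median for 170 (95.5%), against 47.6%. It lay below all 7 for 48 of the 58 lower genes (82.8%), against 28.0%, and below their median for 56 (96.6%), against 52.4%. Cxcl10 was at 677 CPM in that WT tumour and spanned 38.8 to 213 CPM in the 7 line 18 tumours. Hopx was at 147 CPM against 1.40 to 17.4 CPM. Tgtp2 was at 28.1 CPM against 1.89 to 34.0 CPM, so that this gene overlapped.

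The 3 tumours of knockout line 24 of the same library give a further reference, though any comparison of them shares the line 18 tumours. Cxcl10 was at 1201, 412 and 754 CPM in line 24 tumours and Hopx at 66.4, 72.2 and 66.8 CPM. Both genes were thus higher in line 24 than in either line 18 tumour. In the unnamed clusters, thinned to 1000 UMIs, the class I medians of line 24 were 7, 10 and 13 UMIs. Its interferon medians were 5, 2 and 4 UMIs. Its immediate early medians were 11, 15 and 17 UMIs, against 8, 10 and 15 in WT and 5 and 6 in line 18 tumours. The cluster led by Ifit3b held 10.24%, 3.08% and 5.73% of line 24 cells, and that with Sox9 8.21%, 12.75% and 17.8%. All these line 24 values lay above both line 18 tumours, as in WT, and so do not mark WT tumours alone. The glycolysis and hypoxia medians of 14, 17 and 22 UMIs overlapped both groups. Uchl1, at 24.4, 24.9 and 31.7 CPM, lay between the WT and the line 18 tumours.

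How many genes were called depended on single tumours. Fitted with all 8 tumours of the library, the count was 227, and it was 0 without the WT tumour of day 6 (1249 genes at an unadjusted p under 0.05), 15 without the line 18 tumour of day 6, 85 without the WT tumour of day 10 and 607 without the line 18 tumour of day 10. When the leading hashtag had to be 10 times the second, no gene was called (1251 at an unadjusted p under 0.05); this kept 34.7% to 74.3% of other cells per tumour, and 221 genes were called by DESeq2 on the original cells. Among the 13 immediate early genes called, none passed without either tumour of day 6, and their list's median stayed between 0.68 and 0.90 over 16 alternatives. The interferon list stayed between 0.83 and 2.79 with 32 of 32 members higher, and the class I list between 0.85 and 1.95 with 19 of 22 higher, over 16 alternatives, but their calls ran from 0 to 32 and from 0 to 19. No interferon gene passed without either tumour of day 6, with the 10-fold hashtag ratio or without the 10% of cells with the most UMIs. Class I had 0 calls without the WT tumour of day 6 and with the hashtag ratio, 1 without the deepest cells and 3 without the line 18 tumour of day 6. Iigp1 passed in 5 of 16 alternatives, with a log2 fold change of 1.74 to 4.34, Cxcl10 in 9 (1.87 to 3.84) and Ifi27l2a in 12 (1.99 to 3.39). The highest median, 2.79, and the lowest, 0.83, came from leaving out the line 18 tumours of day 10 and day 6. Markers of other cell types moved beside these differences. The summed level of 13 T cell markers in other cells was 20.98, 31.1 and 129 CPM in WT and 13.03 and 24.97 CPM in line 18 tumours, and of 12 macrophage/monocyte markers 68.0, 68.7 and 123 CPM against 42.0 and 100.4 CPM; none of either list was at 0. With clusters named as a host cell type left out, the medians were 1.92 for the interferon and 1.41 for the class I list, and 342 genes were called. An unnamed cluster with 11 of the 12 macrophage/monocyte markers stayed in that set and in the thinned medians above; it held 3.46%, 1.38% and 1.92% of other cells in WT and 2.24% and 4.72% in line 18 tumours. Without it, an alternative added after seeing the data, the thinned medians were again 9, 9 and 12 against 3 and 5 UMIs for class I and 5, 2 and 3 against 0 and 1 for the interferon list.

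A small set of other cells in 2 WT tumours carried Y-linked RNA. At least 1 UMI of Ddx3y, Eif2s3y, Kdm5d or Uty, genes of the male chromosome, was found in 41 of 2338 other cells of the WT tumour of day 6 (1.75%, exact binomial 95% interval 1.26% to 2.37%) and in 35 of 2541 of day 10 (1.38%, 0.961% to 1.91%). The WT tumour of day 16 had 0 of 2083 such cells, which allows a share of cells with a Y-linked UMI of up to 0.144% at 3 counts and of up to 0.177% by the exact binomial interval. The line 18 tumours had 2 of 1519 and 2 of 1801 cells. Counted over all cells, Y-linked UMIs numbered 73, 65 and 0 in the WT tumours, 2 and 17 in the line 18 tumours, the latter in 7 cells, and 2, 3 and 9 in the tumours of line 24, so that 7 of the 8 tumours of the library had some. The other 5 libraries had 0 Y-linked UMIs in 37 tumours and day 0 samples. These intervals cover counting error only. Ddx3y was among the genes called higher in WT tumours (adjusted p = 0.0482) and passed in 4 of 13 alternatives.

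Among immune cells, 23 of 32 interferon-response, 14 of 22 MHC class I, 6 of 10 MHC class II and 10 of 15 inflammatory macrophage genes were called higher in WT tumours, and line 18 tumours had far more RNA of osteoclast genes and, in a few cells, of mast cell genes. Of 11131 genes tested, 413 passed (3.71%), 322 higher (2.89%) and 91 lower (0.818%) in WT tumours. All WT tumours stood above both line 18 tumours for 14.2% of genes and below both for 16.6%. The WT tumour of day 16 lay above all 7 line 18 tumours of other libraries for 178 of the 322 higher genes (55.3%), against 20.4% of genes tested, and below all 7 for 39 of the 91 lower genes (42.9%), against 22%. It lay above their median for 311 of the higher (96.6%, against 47.5%) and below it for 79 of the lower genes (86.8%, against 52.4%). The count was 91 with DESeq2, 240 with at least 1000 UMIs and at most 10% mitochondrial UMIs, 118 when fitted with all 8 tumours, and 33 to 415 with 1 tumour left out of that fit, the lowest without the line 18 tumour of day 6.

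Of 32 interferon-response genes, 23 rose and none fell in immune cells, with a median of 1.06. Cxcl9, the CXCR3 ligand that responds to interferon gamma, was at 274, 641 and 710 CPM in WT and 44.4 and 112 CPM in line 18 tumours (2.58, SE 0.17, adjusted p = 2.25e-06). Cd274, which encodes PD-L1, was at 175, 72.8 and 81.3 CPM against 30.4 and 35.8 CPM (1.72, SE 0.26, adjusted p = 0.00141). Cxcl10 and the GTPase Gbp2 both rose by 1.67 on the log2 scale. The groups did not overlap in Cxcl9, Cd274, Cxcl10 or Gbp2. Of 22 class I genes, 14 rose and none fell, among them H2-Q6 (1.54), H2-T23 (1.22), H2-Q7 (1.22) and the peptide transporter Tap1 (1.20). Of 10 class II genes, 6 rose and none fell: H2-Ab1 was at 1544, 1445 and 2689 CPM in WT and 767 and 833 CPM in line 18 tumours (0.91, SE 0.18, adjusted p = 0.00855), and Cd74 had a log2 fold change of 0.87 (adjusted p = 0.0236).

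Over 17 alternatives the interferon list in immune cells kept at least 31 of 32 members higher, while its median ran from 0.43 to 1.56 and its calls from 0 to 28. DESeq2 called 4 members and the fits without the day term or with line 24 called 1 each; in the latter fit of 8 tumours, none was called without the WT tumour of day 6, the WT tumour of day 10 or the line 18 tumour of day 6, and the lowest median came from leaving out the last of these. For class I, 0 to 17 genes were called with a median of 0.46 to 0.95, and for class II 0 to 7 with a median of 0.61 to 1.24. DESeq2 called 6 class I and 5 class II genes. Without the WT tumour of day 6 neither list had a call, nor had class I without the line 18 tumour of day 6.

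Inflammatory macrophage genes rose in 10 of 15 cases and none fell, with a median of 1.20. DESeq2 called 4 of them, and over 17 alternatives 0 to 11 were called with a median of 0.56 to 1.74, with no call without the WT or the line 18 tumour of day 6. Nos2, which makes nitric oxide, had a log2 fold change of 2.32 (SE 0.48, adjusted p = 0.0126), Il1a 2.08 (adjusted p = 0.0147) and Cd40 1.69 (adjusted p = 0.000166). Genes of alternative macrophage activation moved both ways: of 12 measured, 4 rose (Arg1, Ccl8, Mgl2 and Selenop) and 1 fell (Retnla, -2.42), with a median of 0.29, and Ccl8 alone stood higher in all 3 WT tumours than in both line 18 tumours. Arg1, arginase 1, was at 48.7, 9.50 and 8.25 CPM in WT and 12.8 and 4.88 CPM in line 18 tumours, which overlap (1.52, adjusted p = 0.00494). Over 17 alternatives Arg1 ran from 0.163 to 2.134, Mgl2 from 0.598 to 2.416 and Retnla from -8.291 to -0.904. Ccl8 moved less, from 1.856 to 2.806. Without the osteoclast-like cluster Mgl2 did not pass (edgeR adjusted p = 0.109). Of 15 lipid-associated macrophage genes, 1 rose (Apoe) and 1 fell (Lpl), with a median of -0.12. The monocyte chemoattractant Ccl8 was at 603, 264 and 444 CPM in WT and 71.7 and 70.0 CPM in line 18 tumours (2.48, SE 0.23, adjusted p = 2.65e-05). Calhm6, an interferon-induced channel gene of myeloid cells, was at 99.9, 53.8 and 46.8 CPM against 6.16 and 12.7 CPM (2.77, SE 0.29, adjusted p = 8.09e-05). Dnase1l3, a secreted nuclease of myeloid cells, was at 11.7, 28.0 and 42.0 CPM against 3.52 and 4.42 CPM (2.42, SE 0.29, adjusted p = 0.000228). Every WT tumour exceeded both line 18 tumours in these 3 genes. Of 26 genes of T cell effector function and inhibition 8 rose, the largest being the chemokines Ccl4 (1.84) and Ccl3 (1.79), Gzmb (1.55) and Ccl5 (1.25). DESeq2 called 2 of the 26, both higher. Without the WT tumour of day 6 none was called higher and 2 were called lower, Gzmd and Gzme, near copies whose reads may be split and which were named after their values were seen; over the alternatives up to 3 were called lower. The sum of T cell markers in immune cells was 166, 171 and 462 CPM in WT and 90.4 and 72.4 CPM in line 18 tumours, and of macrophage/monocyte markers 4370, 9820 and 12084 CPM against 2397 and 6452 CPM; their part in these differences was not tested.

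Collagens and other matrix genes also rose in immune cells, 11 of 26 with none falling, among them Lum (2.57), Col12a1 (2.29) and Dcn (1.72), small proteoglycans and a fibril-associated collagen of connective tissue. In cells of clusters named as an immune type, taken in place of the gate, 0 of 23 passed and the median was 0.02, with Lum at 0.76, Col12a1 at 0.37 and Dcn at 0.07. The sum of 8 fibroblast markers in gated immune cells was 419, 596 and 502 CPM in WT and 225 and 286 CPM in line 18 tumours. That list shares Dcn, Lum, Col1a1 and Col3a1 with the matrix list, and the part of fibroblast RNA was not tested. Cck, a peptide hormone gene, had the largest fold among the genes named as higher in immune cells, at 17.6, 77.0 and 97.8 CPM in WT and 0.880 and 5.80 CPM in line 18 tumours (3.80, SE 0.24, adjusted p = 1.79e-06). It was also among the leading genes of the fibroblast-like cluster.

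**Figure D3:**
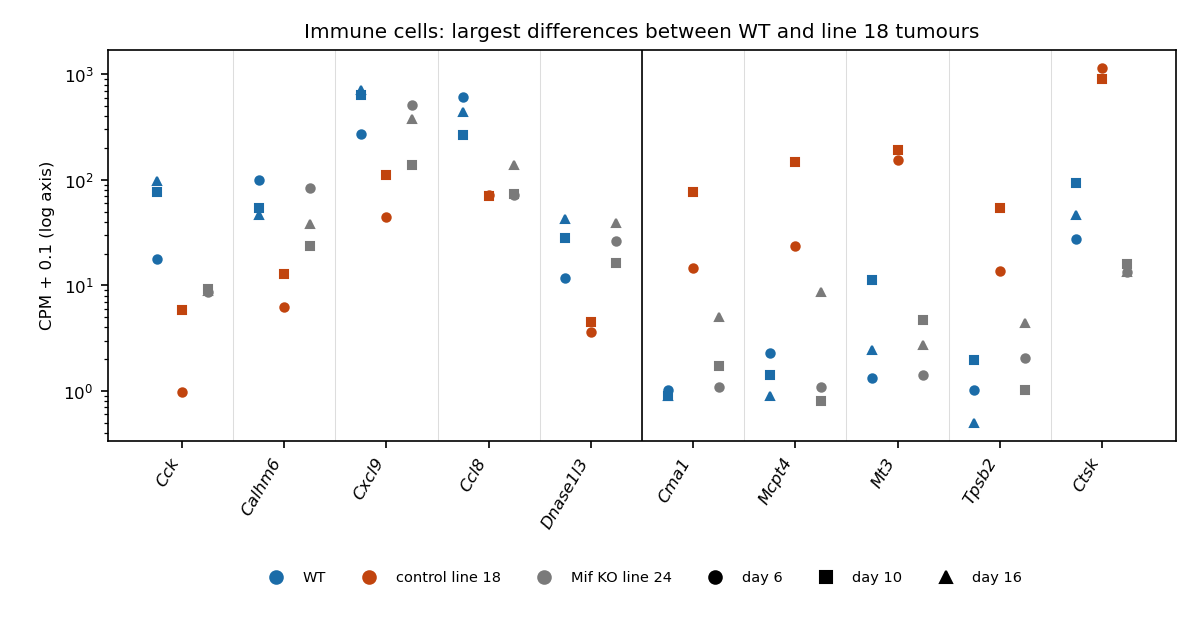
CPM per tumour in immune cells (log axis, 0.1 added) for the 5 largest higher and 5 largest lower genes, left and right of the vertical line. Blue points are WT, orange points line 18 and grey points knockout line 24; Ctsk stands at 1144 and 901 CPM in line 18 and at 27.4 to 93.6 CPM in WT tumours.

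The largest lower genes of immune cells are known from osteoclasts and mast cells, apart from Mt3. Ctsk, cathepsin K, was at 27.4, 93.6 and 46.4 CPM in WT and 1144 and 901 CPM in line 18 tumours (-4.22, SE 0.36, adjusted p = 1.02e-05). Mmp9 was at 14.2, 46.4 and 22.4 CPM against 530 and 506 CPM (-4.20, SE 0.31, adjusted p = 2.61e-06), and Mt3, a metallothionein, at 1.23, 11.1 and 2.36 CPM against 153 and 190 CPM (-4.83, SE 0.35, adjusted p = 2.61e-06). All 3 genes were among the leading genes of an osteoclast-like cluster. Without that cluster Ctsk remained lower at -1.92 (adjusted p = 8.46e-08) and 343 genes passed, 310 higher and 33 lower. The mast cell proteases Cma1 (-5.70), Mcpt4 (-5.54) and Tpsb2 (-4.57), each with relatives in its own gene family that may share reads, also fell. Cma1 was at 14.5 and 76.9 CPM in line 18 tumours and at 0.925, 0.791 and 0.786 CPM in WT tumours. Few cells carried these genes: cells with at least 5 UMIs of the mast cell list numbered 1, 2 and 2 in the WT and 3 and 7 in the line 18 tumours. Summed mast cell markers of immune cells were 7.47 to 31.8 CPM in WT tumours and 60.3 and 247.7 CPM in the line 18 tumours of this library, but spanned 3.97 to 218 CPM in line 18 tumours of other libraries (n = 7), which overlap WT.

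The osteoclast-like cluster held 0.12%, 1.44% and 0.50% of immune cells in WT tumours and 14.36% (exact binomial 95% interval 10.98% to 18.32%) and 12.29% (10.42% to 14.35%) in line 18 tumours. Counted without clusters, immune cells with at least 3 of the 6 osteoclast markers numbered 1, 11 and 6 in WT and 44 and 138 in line 18 tumours. The groups did not overlap. The exact permutation p was 0.5 over the 2 day pairs and 0.2 over the 5 tumours, two-sided, and these are the smallest values this number of tumours can give. In knockout line 24 the same count was 1, 3 and 5 cells of 840, 897 and 1350. Summed osteoclast markers of immune cells spanned 411 to 5544 CPM in line 18 tumours of other libraries (n = 7), 97 to 352 CPM in WT tumours, and 59.9 to 6321 CPM in tumours of the other control line, 15 (n = 9).

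Shares of the other cell classes were less clear. The immune share of all assigned cells was 26.57%, 19.77% and 22.22% in WT and 19.84% and 38.41% in line 18 tumours, higher in WT by 6.73 percentage points on day 6 and lower by 18.64 on day 10 (exact permutation p = 1 over pairs and 0.6 over tumours). Macrophage/monocyte-like clusters held 61.6%, 62.9% and 58.2% of immune cells in WT and 38.03% and 56.1% in line 18 tumours, a mean day difference of 15.2 percentage points with the same smallest possible p of 0.5 and 0.2. At a Leiden resolution of 0.5 the shares were 83.7%, 80.8% and 69.6% against 60.9% and 75.0%, which overlap (p = 0.4 over tumours in the exact permutation test). At the main resolution a cluster of 1825 cells, led by Il1r2, Plbd1 and Cyp4f18 and with 11 of the 12 macrophage/monocyte markers, was left unnamed and is not in these shares, because its top 10 genes held none of those markers but held the neutrophil marker Il1r2. Of all assigned cells they held 17.3%, 12.8% and 13.4% against 8.07% and 22.5%, which overlap. T-cell-like clusters held 4.73%, 7.03% and 21.8% of gated immune cells in WT and 5.05% and 3.65% in line 18 tumours. A fall in the share of 1 class raises the shares of the rest, so these values are not independent of each other.

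**Figure D4:**
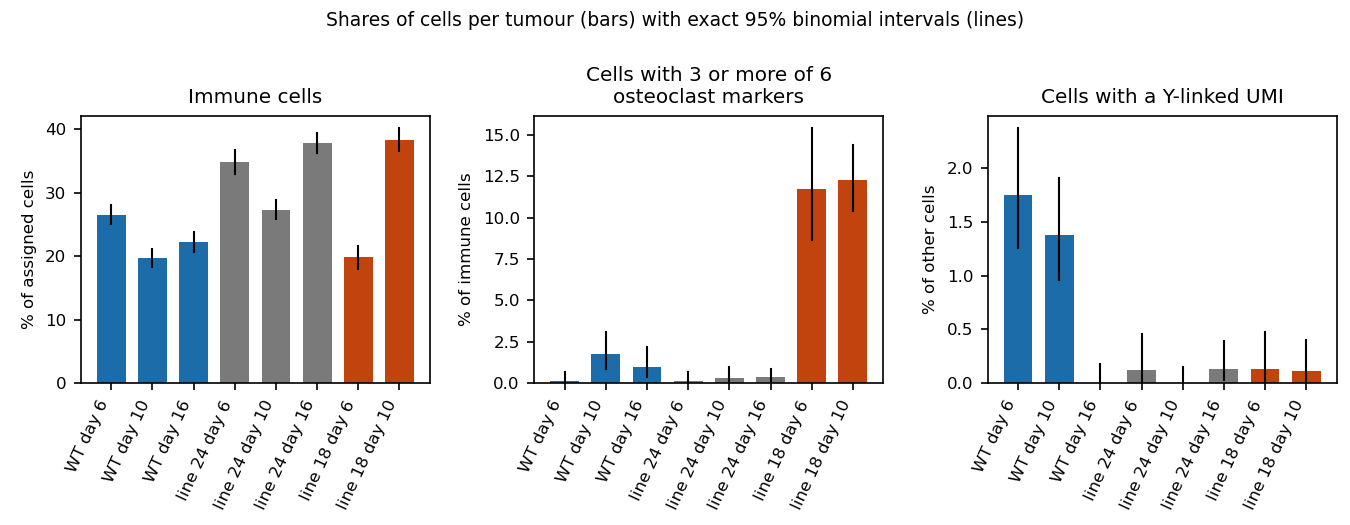
Share of immune cells among assigned cells, of cells with at least 3 of 6 osteoclast markers among immune cells, and of cells with a Y-linked UMI among other cells, for the 8 tumours of the library; bars are shares and lines exact 95% binomial intervals. The osteoclast-marker share is 11.7% and 12.3% in line 18 and at most 1.76% elsewhere, and the Y-linked share is 1.75% and 1.38% in 2 WT tumours.

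Within macrophage/monocyte-like cells, interferon-response genes were higher in WT tumours. Of 8718 genes tested, 84 passed (0.964%), 67 higher (0.769%) and 17 lower (0.195%); all WT tumours stood above both line 18 tumours for 11.5% of genes and below both for 10.3%. Of 32 interferon-response genes 13 rose and none fell, and of 22 class I genes 4 rose and none fell. Cxcl9 was at 601, 1107 and 1227 CPM in WT and 33.8 and 239 CPM in line 18 tumours (2.80, SE 0.31, adjusted p = 1.45e-05). Slamf8, a surface receptor of activated macrophages, was at 105, 68.5 and 75.6 CPM against 8.45 and 17.9 CPM (2.28, SE 0.32, adjusted p = 0.000341). AW112010, an interferon-induced transcript, was at 1203, 825 and 982 CPM against 270 and 187 CPM (2.11, SE 0.24, adjusted p = 1.45e-05), and Calhm6 and Dnase1l3 rose again, by 2.32 and 2.26 on the log2 scale. In each gene the WT tumours stood above both line 18 tumours.

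Lower in these cells were Cd207, the lectin langerin, at 0.922, 14.4 and 17.0 CPM against 56.3 and 41.6 CPM (-2.35, adjusted p = 0.00616), the lipase Lipg (-2.13, adjusted p = 0.000341), the chemokine Cxcl3 (-1.70), the proteoglycan Sdc1 (-1.62) and Ctsk (-1.97). These calls held in few alternatives apart from Lipg, which passed in 9 of 12. Ctsk passed in 3 of 12, from -3.01 without the line 18 tumour of day 6 to -0.17 without that of day 10, Cd207 in 2 of 12 (-4.05 to -1.38), Sdc1 in 2 of 12 (-1.95 to -1.32) and Cxcl3 in 4 of 13 (-1.78 to -0.85). The class joins 2 clusters, led by Chil3, Ly6i and Plac8 in one and by Pf4, Ms4a7 and C1qc in the other. The first held 405, 117 and 93 cells and the second 147, 287 and 266 cells in WT tumours, against 67 and 271 and 86 and 387 cells in line 18 tumours of days 6 and 10. The count of calls depended on the settings. It was 88 with RLE size factors in place of TMM and 123 without the low-count filter. It was 29 with line 24 in the fit, 18 with DESeq2 and 16 with a 10-fold hashtag ratio. Without the day term it was 0 (482 at an unadjusted p under 0.05). With at least 1000 UMIs and at most 10% mitochondrial UMIs it was 9. Without the 10% of a tumour's assigned cells with the most UMIs it was 10. That last cut kept 552, 402 and 355 of 552, 404 and 359 cells of this class in WT tumours. In line 18 tumours it kept 153 and 653 of 153 and 658. Over 13 alternatives the interferon list had 0 to 21 members called and a median of 0.39 to 1.73 with at least 28 of 32 members higher, and the class I list 0 to 6 called and a median of 0.38 to 0.97. Both medians were lowest without the line 18 tumour of day 6.

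T-cell-like cells numbered 78, 112 and 340 in WT and 34 and 76 in line 18 tumours. They join clusters with a median of 1560, 1299 and 5496.5 UMIs per cell. The deepest had Ptprc at 190.3 CPM, against 694.0 and 743.6 CPM, and held 37, 41 and 104 WT and 14 and 36 line 18 cells. Of 28 collagen and matrix genes, 15 were abundant enough to be tested in this class. The part of RNA of other cells, or of doublets, in the differences below was not tested. Of 5230 genes tested 20 passed (0.382%), 10 in each direction (0.191% each). The interferon-response genes Oasl2 (3.19), Ifit1 (2.94), Cxcl10 (2.28) and Ifi27l2a (0.98) and the effector genes Ccl4 (1.68), Nkg7 (1.15) and Gzmb (0.96) were higher in WT tumours. Gzmb passed in 2 of 13 alternatives and was 0.09 without the line 18 tumour of day 6 and 0.16 without the WT tumour of day 10; Ccl4 passed in 5 of 13 (0.93 to 2.29) and Oasl2 in 4 of 12 (2.65 to 3.59). Ifi27l2a, the most abundant of them, was at 1426, 1429 and 1221 CPM in WT and 799 and 616 CPM in line 18 tumours. Ccl3 was at 126, 74.9 and 72.3 CPM in WT, at 0 in the line 18 tumour of day 6 and at 2.91 CPM in that of day 10. Those line 18 sums held only 136561 and 334270 UMIs over all genes, so both values lie near the floor. Ccl3 passed in 6 of 13 alternatives, with a log2 fold change of 3.59 to 9.61. The lower genes were led by the mast cell genes Hdc, Tpsab1, Cpa3, Tpsb2 and Mcpt4. Their UMIs came from few cells: in line 18 tumours 116 of 116 UMIs of day 6 lay in 1 cell and 1540 of 1541 of day 10 in 5 cells. DESeq2 called 3 genes, all lower in WT tumours (Hdc, Cpa3 and Ccl7, the last named after its values were seen), and none of the interferon and effector genes named here as higher; 12 to 38 passed with 1 tumour left out of the fit of all 8, the fewest without the WT tumour of day 10.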

How the data were processed

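The files are UMI counts, not normalized, that the authors deposited by gene and barcode together with hashtag counts, made with Cell Ranger 6.0.0 on mm10 per the submitters' processing notes; a deposited sheet pairs hashtags with line and day. Hashtag calls, filters and the immune gate are those given in the report. Mixed-hashtag barcodes were left out as doublets. Doublets within a tumour remain, and leaving out the 10% of a tumour's assigned cells with the most UMIs was an alternative. All 8 tumours of the library were clustered together (scanpy 1.11.5, 1908 variable genes, 30 components, 15 neighbours, Leiden resolution 1.0, 21 clusters) and named from 17 marker lists; a name needed 3 markers.

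Counts were summed per tumour and class and fitted with edgeR 4.0.16 (filterByExpr, TMM, quasi-likelihood test, day and group as terms, Benjamini-Hochberg over all genes tested, threshold 0.05). Ptprc and Tyrobp were left out of the immune test. CPM of genes per tumour are TMM-scaled over the day 6 to 16 tumours of all libraries, as are the osteoclast and mast cell marker sums. The melanocytic, T cell, macrophage/monocyte and fibroblast marker sums are CPM of each tumour's total without TMM scaling. DESeq2 1.42.0 was an alternative. The design was written for 3 tumours per group, but line 18 has 2 in this library, so 2 day pairs enter; pairing is by the day on the sheet. Whether tumours came from separate mice is not stated. Each group has 1 tumour per day, so the p-values of this fit do not measure the spread between tumours of a group. The 1 residual degree of freedom is the disagreement between the 2 day pairs. The rest was borrowed from other genes, with a weight of 5.686, 13.33 and 24.55 degrees of freedom in other, immune and macrophage/monocyte-like cells. In T-cell-like cells that weight was infinite, so no gene's own spread entered.

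Named genes are Mif, Ddt, up to 4 of the largest changes in each of 23 gene lists, and the 10 (other cells) or 5 (other classes) largest changes each way, if they passed the test, had mean logCPM 4 or more and showed WT on the same side of line 18 on each day. In other cells 1 of these genes is not reported here. Cells, comparison and lists were chosen with earlier results of these data known. The fit was tested on simulated data with known changes. It recovered 97%, 88%, 44% and 17% of 2-fold changes in other, immune, macrophage/monocyte-like and T-cell-like cells. Of 4-fold changes it recovered 100% in each class but T-cell-like cells, with 75%. The simulated counts held no day effect and no spread of a gene's own beyond the trend, so they cannot show how the fit handles these. Gene positions are from GENCODE M21, in which 13237 of 13250 tested identifiers were found; promoters are from RefSeq. The limit printed for a count of 0 is 3 counts, and like the binomial intervals it holds counting error alone.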

Additional observations from a re-analysis of the deposited data

Results flagged for a closer look

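The immune share of assigned cells differed between the days in direction. WT tumours were above line 18 by 6.73 percentage points on day 6 and stood at -18.64 percentage points, below line 18, on day 10. With 1 tumour per group and day the difference between the days was not tested.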

How the results depend on the processing

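The count of genes called in other cells (236) was 1185 without the low-count filter, 140 in cells with no UMI of Ptprc or Tyrobp, 29 without the 10% of cells with the most UMIs, 0 with a 10-fold hashtag ratio and 363 with the line 18 tumour of day 16 from the other mixed library; with 1 tumour left out of the fit of all 8 it ran from 0 to 607. In immune cells (413) it was 91 with DESeq2, 736 without the filter, 118 with line 24 in the fit, 240 under the stricter cell filter and 33 to 415 with 1 tumour left out. In macrophage/monocyte-like cells (84) it was 18 with DESeq2, 29 with line 24, 16 with the hashtag ratio, 9 under the stricter filter, 10 without the deepest cells and 11 to 40 with 1 tumour left out; in T-cell-like cells (20) 3 with DESeq2, 7 with the hashtag ratio and 12 to 38. The cause was not tested. The hashtag ratio and the stricter filter leave fewer cells, and dropping the low-count filter tests more genes. Of 552, 404 and 359 macrophage/monocyte-like cells in WT tumours, the deepest-cell filter kept 552, 402 and 355 and the stricter filter 504, 393 and 352. Of 153 and 658 such cells in line 18 tumours, the deepest-cell filter kept 153 and 653 and the stricter filter 134 and 638. In immune cells the count was 522 without the deepest cells and 360 with the hashtag ratio. Without the day term (no replicate block, the pairing by day given up) the counts were 115 in other, 91 in immune and 0 in macrophage/monocyte-like cells. Leaving out a whole day pair leaves no residual degree of freedom, so calls under it were not run.

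Mif in other cells was 0.411 without the low-count filter and passed (adjusted p = 0.0262), and did not pass in any of the other 15 alternatives. Mif in immune cells changed sign at -0.022 without the day term, -0.022 with line 24, -0.049 without the deepest cells, -0.004 in named immune clusters and -0.088 to 0.029 with 1 tumour left out. Other reversals were Cd74 in other cells (-0.036 without the line 18 tumour of day 6, and up to 1.331 with another tumour left out), Fabp4 (2.061 without host clusters) and Cd200 in immune cells (0.403 without the osteoclast-like cluster). The neutrophil share difference went from -1.787 to -0.084 percentage points under the stricter filter. Of 971 values of 61 genes named in other cells under alternatives, 642 kept direction and side of the threshold, 321 kept direction only, 6 newly passed and 2 reversed; for 46 genes in immune cells these were 533, 234, 0 and 8 of 775, and for 30 macrophage/monocyte genes 142 and 239 of 381. Alternatives with 1 tumour left out, the added line 18 tumour, the osteoclast-like cluster left out and the named immune clusters were chosen after seeing the data. T-cell-like cells give the least depth, with 34 to 340 cells per tumour.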
